A study of Mus musculus with 73 samples.

Results

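The genes described here are the heat shock proteins, chaperonins and protein disulfide isomerases on a mouse 2-colour cDNA array. Members were all features whose single gene symbol in the array's probe table starts with Hsp, Dnaj, Pdia or Cct followed by a digit, without Dnajc3 and Hspg2. The rule gave 57 of 9596 features and 47 of 6795 genes, and it used no measured value. By class they are 7 subunits of the chaperonin CCT, 2 Hsp60 and Hsp10 features (Hspd1-ps3 and Hspe1), 2 Hsp90 genes, 7 Hsp70 genes and 3 Hsp110 genes. The J-domain proteins hold 2 Dnaja, 7 Dnajb and 12 Dnajc genes. The list ends with 2 disulfide isomerases and 3 genes classed as small heat shock proteins by their Hspb symbol alone. Each of the 47 genes was measured on the reference arrays, and 43 were measured on the direct arrays, where Dnajc8, Hsp90b1, Hspb7 and Pdia3 held no value.

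Chaperones bind proteins that are not yet folded, or no longer folded, and keep them from clumping. Hsp70 proteins hold short greasy stretches in cycles of ATP hydrolysis, J-domain proteins bring the client and start that hydrolysis, and Hsp110 proteins exchange the nucleotide. Hsp90 takes over clients such as kinases and steroid receptors. CCT is a double ring of related subunits, each from its own gene, that encloses actin, tubulin and other proteins while they fold, and Hsp60 with its lid Hsp10 does the same in mitochondria. In the endoplasmic reticulum (ER), Hspa5 (BiP), Hsp90b1 (Grp94) and the disulfide isomerases fold secreted proteins, and the unfolded protein response raises them when folding falls behind. The inducible members are driven by heat shock factors that bind heat shock elements in their promoters.

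The study compared tumors driven by the SV40 T/t-antigen at 4 sites with wild-type normal tissue, and mammary tumors of 8 mouse models with wild-type normal mammary gland. On 35 arrays each sample (Cy3) was set against a universal reference RNA of pooled cell lines (Cy5). Prostate and seminal vesicle samples were C57BL/6, with 4 normal arrays each, 5 TRAMP prostate tumors and 6 TRAMP seminal vesicle tumors, in which the probasin promoter (PB) drives the transgene. Mammary gland and lung samples were FVB, with 4 normal arrays each, 4 C3(1)/SV40 T/t-antigen mammary tumors and 4 CC10/SV40 T/t-antigen lung tumors, named by the promoter that drives the transgene. The other 38 arrays paired a mammary tumor in Cy5 with normal mammary gland of the same strain in Cy3. Those arrays hold p53-/- transplants in Balb/c (n = 5), p53fp/fp;WAP-cre tumors (n = 4) and Brca1 Co/Co;MMTV-cre;p53 tumors (n = 5), the latter pair in C57BL6/129sv. The FVB models are C3(1)/SV40 T/t-antigen (n = 5), MMTV-ras (n = 5), MMTV-PyMT (n = 5), MMTV-her2/neu (n = 5) and MMTV-myc (n = 4), where MMTV and WAP promoters act mainly in mammary epithelium. Between the C57BL/6 and the FVB sites, strain and location cannot be told apart, and dye cannot be told apart from tumor on the direct arrays. Whether the FVB models shared 1 control RNA is not given in the sources used here. No label says that samples came from separate animals, so p-values measure the spread between these samples, which may be technical.

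The reference arrays held 9244 to 9572 values each and the direct arrays 7042 to 7934. Values are log2 ratios, so a difference of 1 is a 2-fold difference. Skeletal muscle markers (13 genes) averaged 4.04 ± 0.39 (SD, n = 4) in normal prostate against -0.05 ± 0.10 (n = 5) in prostate tumors, and stood between -2.23 and -4.23 in the 8 direct models. Markers of epithelium (8 genes) averaged 1.44 in normal prostate and -0.76 in prostate tumors, and in these tumors the prostate and seminal vesicle secretory genes (2) averaged 0.00. Adipocyte markers (10 genes) went from 3.54 to 1.13 in mean level between normal mammary gland and mammary tumors, where the epithelial mean went from 0.75 to 1.63. In bulk samples like these, fewer cells of a type and less RNA per cell cannot be told apart. Of these marker shifts only that of muscle was tested, with its mean as a covariate at the 4 sites and not on the direct arrays. Adjusted values are given below for some members only. In prostate the muscle mean did not overlap between the groups, and with it as a covariate the median SE rose from 0.127 to 0.255. In that fit 20 of the 47 members passed, 12 higher and 8 lower, and 1851 of 6767 genes. Without the covariate 37 members passed, 18 higher and 19 lower, and 4157 genes. Only 1 prostate tumor (array 5) lay in run 1, a stretch of neighbouring array numbers that holds 3 of the normals, so prostate values within run 1 set 1 tumor array against 3 normals and are given without a test.

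Tumors of the 4 sites changed the chaperone genes in different ways. Against an adjusted p under 0.05 (limma, Benjamini-Hochberg over all genes tested), 37 of the 47 genes passed in prostate, 18 higher and 19 lower, where 61.4% of all genes passed, 29.2% higher and 32.2% lower. In seminal vesicle 24 passed, 13 higher and 11 lower, against 43.5% of all genes (23.3% and 20.2%). Quantile normalization gave 7, 3 higher and 4 lower, and centring each array gave 12 higher and 12 lower. With run as a factor 8 passed there, 8 higher and 0 lower, and the median SE was 0.297 in place of 0.123. The lower calls in seminal vesicle described below were thus lost in that fit, as were the higher calls of Hsp90b1, Hspa9 and Pdia3. In mammary gland 14 passed, 6 higher and 8 lower, against 36.7% (16.6% and 20.1%), and 5 higher and 11 lower after quantile normalization. In lung 27 passed, 18 higher and 9 lower, against 36.5% of all genes (16.2% and 20.4%). The median change of the 47 genes was 0.02 in prostate, 0.10 in seminal vesicle, -0.08 in mammary gland and 0.20 in lung, and that of all genes -0.03, 0.04, -0.02 and -0.06. The tumor change differed among the 4 sites for 42 of 47 genes by the moderated F test (74.1% of all genes), and the 4 normal tissues differed for 40 (79.5%).

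**Figure D1:**
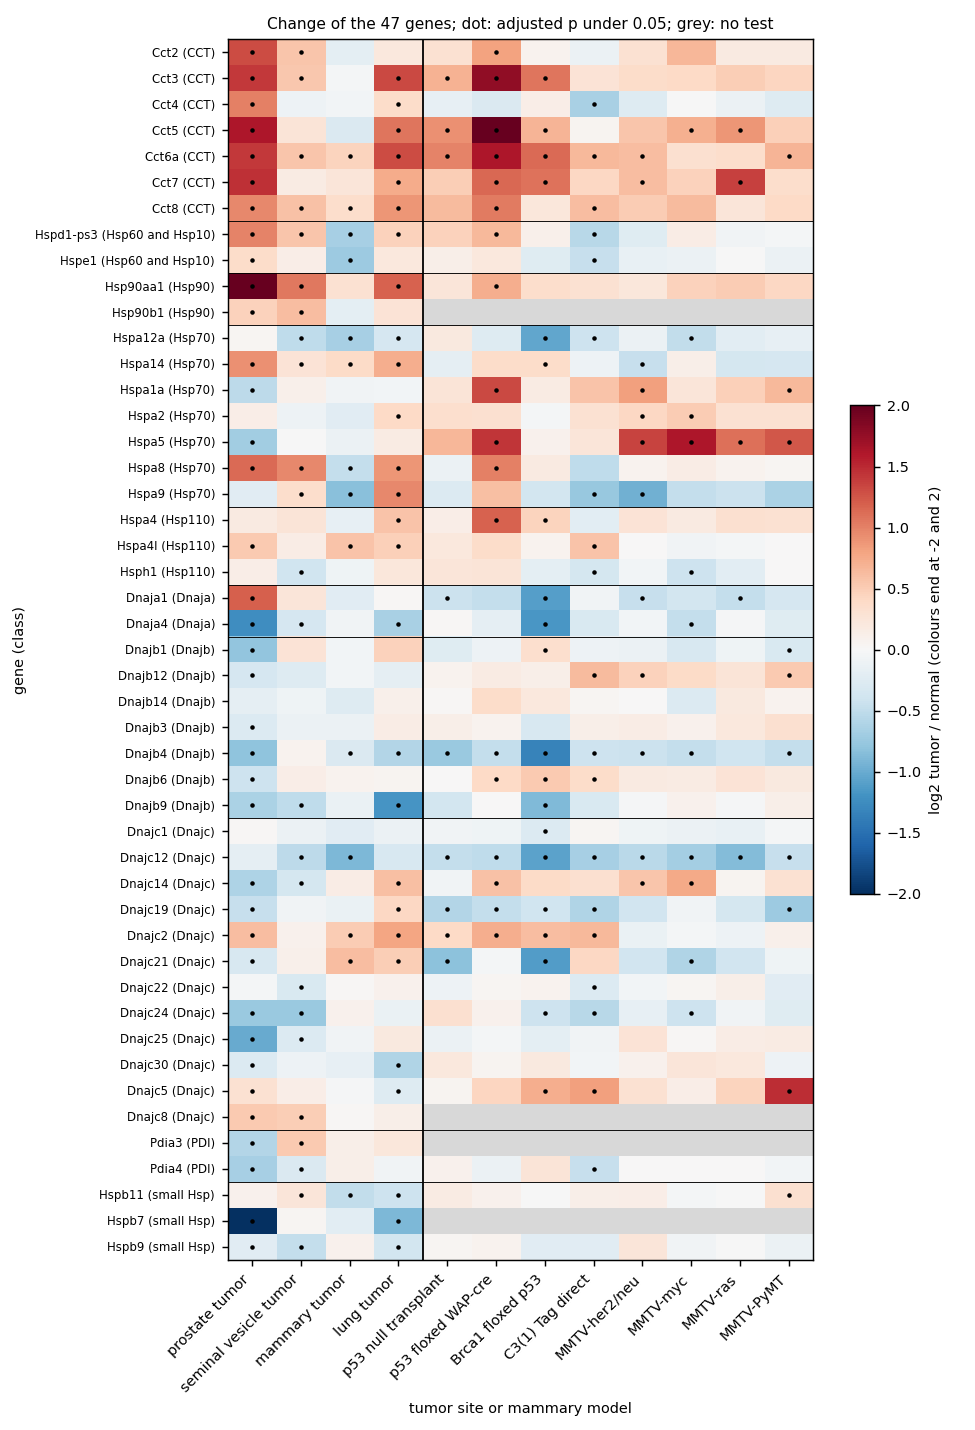
Change of each of the 47 genes (vertical axis, grouped by class) in 4 tumor sites and 8 direct mammary models (horizontal axis), as log2 tumor over normal, with colours that end at -2 and 2. A dot marks an adjusted p under 0.05 and grey no test. The 7 CCT subunits are red throughout the prostate column, and Dnajc12 is blue with a dot in each of the 8 models.

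On the direct arrays most models called a share of the members near that of all genes. The p53-/- transplants called 9 of 43, 4 higher and 5 lower, against 20.8% of all genes (9.66% higher and 11.1% lower), and 13 higher and 7 lower after quantile normalization. The p53fp/fp;WAP-cre tumors called 18, 15 higher and 3 lower, against 29.1% (18% and 11.1%). The Brca1 tumors called 20, 10 in each direction, against 47.4% (26.2% and 21.2%). The C3(1)/SV40 T/t-antigen tumors called 19, 7 higher and 12 lower, against 41.8% (22.4% and 19.5%). MMTV-her2/neu called 12, 7 higher and 5 lower, against 25.9% (15% and 10.9%). MMTV-myc called 11, 4 higher and 7 lower, against 23.1% (12.2% and 10.9%). MMTV-ras called 5, 3 higher and 2 lower, against 18.9% (9.97% and 8.89%), and MMTV-PyMT called 10, 6 higher and 4 lower, against 30.3% (18.3% and 12%). The 8 models differed for 20 of 43 genes (42.1% of all genes).

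The higher and lower split on the direct arrays depends on centring. With values as deposited the median of all genes moved to 0.36 for C3(1)/SV40 T/t-antigen, 0.24 for Brca1, 0.21 for myc and 0.18 for ras. The calls were then 16 higher and 0 lower for C3(1)/SV40 T/t-antigen, 14 and 7 for Brca1, 10 and 0 for myc, 10 and 1 for ras, and 4 and 1 for PyMT. Quantile normalization gave 7 higher and 8 lower for myc and also 7 and 8 for PyMT. Direct values below are relative to the array median. The 4 p53fp/fp;WAP-cre arrays lay in 1 run of array numbers that held no other model. The p53-/-, Brca1 and MMTV-myc arrays also shared no run with another model. For these models, a difference from another model cannot be told apart from run, nor from strain where the strains differ. Of the 47 genes, 22 passed at 2-fold or more in at least 1 site or model, and these are described with their arrays. The members at that level were 12 in prostate (17.1% of all genes), 1 in seminal vesicle (3.32%), 0 in mammary gland (7.68%) and 5 in lung (7.09%). Among the models they were 9 in p53fp/fp;WAP-cre (10.7%), 9 in Brca1 (12.1%), 2 in ras (4%), 2 in PyMT (6.59%), 1 in her2/neu (5.93%), 1 in myc (5.29%), and 0 in p53-/- (5.6%) and C3(1)/SV40 T/t-antigen (8.03%). Members named beside them were chosen after their values were seen.

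Promoters of 37 members were matched by gene identifier in the RefSeq table of GRCm38.p6, as 48 windows of 250 bases before to 50 after a gene start. The 5 below were chosen, with their values and matches known, because each holds a stress response motif searched for here and its gene is described by array below. They are those of the ER chaperone Hspa5, the inducible Hsp70 gene Hspa1a, the CCT subunits Cct2 and Cct5, and the J-domain gene Dnajb4. Dnaja1 and Dnaja4 also met these conditions, with GAANNTTC before the start, and are not shown. Each line holds the 250 bases before the start, 5′ to 3′ on the gene's strand. Capitals mark an ER stress response element in Hspa5, which is CCAAT, then 9 free bases, then CCACG. In the other 4 they mark a pair of heat shock units, GAANNTTC in Hspa1a and Cct2 and TTCNNGAA in Cct5 and Dnajb4. Positions are chr2:34771840-34772089 (+) for Hspa5, chr17:34972157-34972406 (-) for Hspa1a, chr10:117063376-117063625 (-) for Cct2, chr15:31601847-31602096 (-) for Cct5 and chr3:152193846-152194095 (-) for Dnajb4.
Hspa5: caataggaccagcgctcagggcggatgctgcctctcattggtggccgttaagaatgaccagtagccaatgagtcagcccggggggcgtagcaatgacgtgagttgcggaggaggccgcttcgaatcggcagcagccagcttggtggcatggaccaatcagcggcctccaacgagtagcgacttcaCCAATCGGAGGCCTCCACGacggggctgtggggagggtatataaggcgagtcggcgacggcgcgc
Hspa1a: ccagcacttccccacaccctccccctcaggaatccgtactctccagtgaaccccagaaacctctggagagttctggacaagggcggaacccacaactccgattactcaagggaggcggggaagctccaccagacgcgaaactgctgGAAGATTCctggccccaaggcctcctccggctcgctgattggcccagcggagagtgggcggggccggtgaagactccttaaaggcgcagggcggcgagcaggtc
Cct2: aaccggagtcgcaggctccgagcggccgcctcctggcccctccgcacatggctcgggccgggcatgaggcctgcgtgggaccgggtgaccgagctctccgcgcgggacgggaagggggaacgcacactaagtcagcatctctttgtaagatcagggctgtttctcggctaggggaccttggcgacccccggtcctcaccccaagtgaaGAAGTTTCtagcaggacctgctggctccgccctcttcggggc
Cct5: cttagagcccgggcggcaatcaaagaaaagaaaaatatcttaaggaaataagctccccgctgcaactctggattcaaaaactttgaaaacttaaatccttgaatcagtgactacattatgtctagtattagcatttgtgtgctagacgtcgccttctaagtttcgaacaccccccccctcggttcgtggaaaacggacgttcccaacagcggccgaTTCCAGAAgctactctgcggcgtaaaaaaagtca
Dnajb4: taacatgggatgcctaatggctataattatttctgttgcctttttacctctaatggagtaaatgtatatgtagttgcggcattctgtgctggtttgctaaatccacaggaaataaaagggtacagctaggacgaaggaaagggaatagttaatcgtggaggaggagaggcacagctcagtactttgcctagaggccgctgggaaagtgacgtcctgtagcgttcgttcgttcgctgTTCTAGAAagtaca

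Motifs were searched on both strands of the 300-base windows. The ER stress response element was in 2 of 48 member windows (4.17%), those of Hsp90b1 and Hspa5, and in 0.119% of all 32851 promoters. A row of 3 heat shock units, GAA, TTC and GAA with 2 free bases between neighbours, was in 5 windows (10.4%), of Dnajb6, Hspe1 and Hsph1, and in 0.603% of all. The shorter GAANNTTC was in 9 windows (18.8%) of Cct2, Dnaja1, Dnaja4, Dnajb6, Hspa1a, Hspe1 and Hsph1, and in 7.86% of all promoters. TTCNNGAA was in 8 windows (16.7%) of Cct5, Cct6a, Dnajb4, Dnajb6, Hspe1 and Hsph1, and in 8.52% of all. Both short forms overlap the 3-unit form where that is present. CCAAT was in 37.5% of member windows and 37.4% of all, and the E-box CACGTG in 10.4% and 7.15%. A match is a description of letters and not of a bound site.

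The CCT subunits moved together in the prostate. In prostate tumors 7 of 7 subunits rose, with a median change of 1.41 and a range from 0.96 to 1.61, and they rose under each alternative run, with medians from 1.13 to 1.43. In lung tumors 6 of 7 rose (median 0.88), with Cct2 at 0.22 and not past the test. In seminal vesicle tumors 4 of 7 rose (median 0.53), but 0 of 7 did after quantile normalization (median 0.09). In mammary tumors 2 of 7 rose, Cct6a by 0.45 and Cct8 by 0.35, and the median was -0.04. Of all genes, 29.2% were higher in prostate, 16.2% in lung, 23.3% in seminal vesicle and 16.6% in mammary gland. Within the mammary arrays of 1 run of array numbers no subunit passed, and quantile normalization gave 1 higher and 2 lower there, Cct2 at -0.35 and Cct5 at -0.53. Cell division markers (13 genes) moved from -1.79 to 0.82 in prostate, -1.85 to -0.78 in seminal vesicle, -1.62 to 0.28 in mammary gland and -1.46 to 0.72 in lung, and their part in the CCT changes was not tested.

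Cct5 (CCT epsilon) showed the largest prostate rise among the subunits. Its log2 ratios to the reference were -1.70, -1.85, -1.55 and -1.98 in normal prostate and -0.28, -0.11, 0.00, -0.03 and -0.38 in prostate tumors. The groups did not overlap, and the rise was 1.61 (SE 0.135, adjusted p = 4.67e-12), or 3.06-fold. In lung it went from -1.86, -2.14, -2.24 and -1.77 in normal tissue to -0.61, -0.85, -1.03 and -1.23 in tumors, again without overlap, a rise of 1.07 (SE 0.142, adjusted p = 3.37e-07). In the mammary gland normal arrays stood at -1.08, -0.95, -0.74 and -1.48 and tumors at -1.12, -1.65, -1.41 and -1.22. The mammary change of -0.29 (SE 0.142, adjusted p = 0.117) did not pass, although without normal array 4 it was -0.42 (adjusted p = 0.0191).

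Cct6a (CCT zeta) and Cct8 (CCT theta) were the 2 subunits that passed at each of the 4 sites. Cct6a levels were -1.45, -1.46, -1.50 and -1.65 in normal prostate and -0.13, -0.33, -0.38, 0.04 and 0.25 in prostate tumors, a rise of 1.41 (SE 0.141, adjusted p = 2.52e-10). In lung they were -1.63, -2.17, -1.94 and -1.59 and -0.44, -0.66, -0.58 and -0.46, a rise of 1.30 (SE 0.148, adjusted p = 2.28e-08). Both pairs of groups were separate. Seminal vesicle normals stood at -1.79, -1.77, -1.74 and -1.49, and the 6 tumors had a lowest value of -1.36, a median of -1.12 and a highest value of -0.94, a rise of 0.55 (SE 0.135, adjusted p = 0.00145). The mammary rise was smaller, 0.45 (SE 0.148, adjusted p = 0.0162), from -1.16, -1.14, -0.98 and -1.35 to -0.54, -1.26, -0.61 and -0.42, and it lost the call without normal array 4 or tumor array 1 or 4 (0.35 to 0.39). For Cct8, prostate levels were -1.46, -1.27, -1.38 and -1.26 in normal tissue and -0.43, -0.64, -0.52, -0.47 and 0.15 in tumors, and the rise of 0.96 (SE 0.128, adjusted p = 9.32e-08) was just under 2-fold. Prostate tumor array 5, whose array number lies in run 1 with 3 of the normals, was the highest of the 5 for Cct8. The mammary rise of 0.35 (SE 0.135, adjusted p = 0.0412) lost the call without any 1 of 6 arrays.

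Cct3 (CCT gamma) rose in both prostate and lung. Levels were -1.52, -1.41, -1.42 and -1.47 in normal prostate and -0.24, 0.06, -0.02, -0.10 and 0.07 in tumors, a rise of 1.41 (SE 0.108, adjusted p = 6.37e-13). In lung they were -1.36, -1.39, -1.30 and -1.24 and -0.08, -0.06, 0.30 and -0.16, a rise of 1.32 (SE 0.114, adjusted p = 1.02e-10). None of these 4 groups overlapped with its partner. For Cct7 (CCT eta) prostate went from -1.39, -1.44, -1.44 and -1.18 to -0.09, 0.14, 0.30, 0.36 and -0.19, a rise of 1.46 (SE 0.138, adjusted p = 6.64e-11), and lung rose by 0.75 (adjusted p = 0.000109). Cct2 (CCT beta) went from -1.67, -1.64, -1.67 and -1.39 to -0.49, -0.07, -0.12, -0.32 and -0.46 in prostate, a rise of 1.30 (SE 0.121, adjusted p = 4.86e-11), while its lung change of 0.22 (SE 0.127, adjusted p = 0.191) did not pass. Cct4 (CCT delta), the mean of 2 features, went from -0.69, -0.75, -0.74 and -0.38 to 0.12, 0.63, 0.77, 0.22 and 0.09 in prostate, a rise of 1.00 (SE 0.112, adjusted p = 2.59e-09), and rose by 0.37 in lung (adjusted p = 0.0142). In each of these 3 prostate comparisons the lowest tumor array was above the highest normal array. The share of all genes without overlap between groups is not given here. The tumor change differed among sites for 7 of 7 subunits (74.1% of all genes), with ranges over the 4 sites from 0.61 for Cct8 to 1.90 for Cct5. The 4 normal tissues also differed for 7 of 7 (79.5% of all genes).

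**Figure D2:**
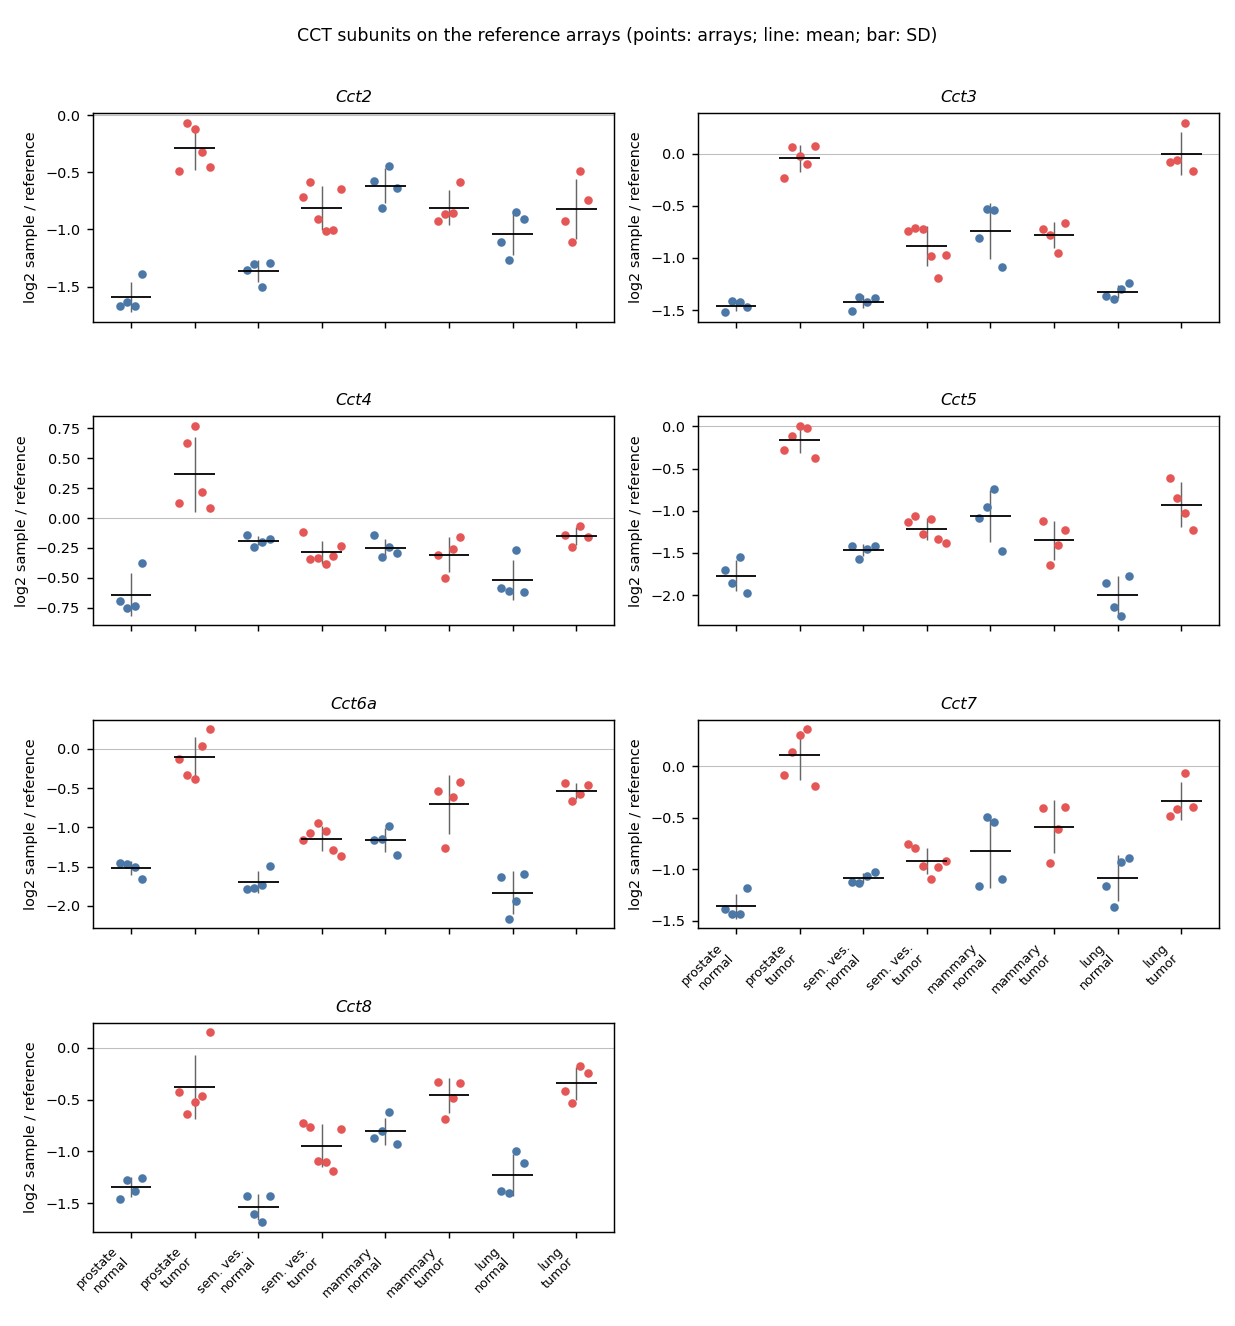
Log2 sample over reference (vertical axes) of 7 CCT subunits in normal tissue (blue) and tumors (red) of 4 sites, with points for arrays, lines for means and bars for SD. In prostate the red points lie above the blue points in each panel, and in mammary gland they overlap for most subunits.

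The cochaperone prefoldin, which hands actin and tubulin to CCT, and the remaining measured subunit Tcp1 (CCT alpha) form a list of 4 genes outside the membership rule. In prostate 4 of 4 rose (median 1.28), among them Vbp1 by 1.82 (SE 0.15, adjusted p = 3.53e-12), Pfdn4 by 1.36 (adjusted p = 9.25e-12) and Tcp1 by 1.20 (adjusted p = 5.7e-10). In lung 3 of 4 rose, Tcp1 by 0.79 (adjusted p = 1.36e-05), Pfdn6 by 0.76 (adjusted p = 3.18e-05) and Pfdn4 by 0.38 (adjusted p = 0.0154). In seminal vesicle only Tcp1 passed (0.36, adjusted p = 0.0144), and in mammary gland only Vbp1 (1.05, adjusted p = 2.7e-06). Of all genes, 29.2% were higher in prostate, 16.2% in lung, 23.3% in seminal vesicle and 16.6% in mammary gland. Among the direct models 0 to 2 of the 4 passed in a model, each time higher, where 9.66% to 26.2% of all genes were higher.

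On the direct mammary arrays the CCT subunits had their highest median in the p53fp/fp;WAP-cre tumors, where 6 of 7 rose (1.14). There 18% of all genes were higher. Model and run cannot be told apart for these tumors, whose 4 arrays made up a run of their own. Cct5 rose there by 2.03 (SE 0.235, adjusted p = 5.04e-08) and Cct3 by 1.78 (SE 0.261, adjusted p = 2.9e-06), the largest changes of a subunit in any model. In the p53-/- transplants 3 rose (median 0.63), in the Brca1 tumors 4 (0.68), and in C3(1)/SV40 T/t-antigen 2 rose and 1 fell (0.27). Among all genes 9.66%, 26.2% and 22.4% were higher in that order, with 19.5% lower in C3(1)/SV40 T/t-antigen. In her2/neu and ras 2 rose each (0.50 and 0.36), and in myc and PyMT 1 each (0.47 and 0.39). The shares of all genes higher were 15%, 9.97%, 12.2% and 18.3% in that order. Cct6a passed in 6 of 8 models and Cct5 in 5 of 8. The models differed by the F test for 4 of 7 subunits, Cct3, Cct5, Cct6a and Cct7, and for 42.1% of all genes. In the p53fp/fp;WAP-cre tumors leaving out 1 array left 5 or 6 subunits, but in her2/neu 0 to 2, in myc 0 to 2, in C3(1)/SV40 T/t-antigen 0 to 2 and in PyMT 0 or 1.

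Cct5 values on the 4 p53fp/fp;WAP-cre arrays were 1.99, 2.28, 2.33 and 1.52, all above those of the p53-/- transplants at 1.47, 0.54, 0.66, 1.11 and 0.82. C3(1)/SV40 T/t-antigen arrays stood at 0.93, -0.25, -1.01, 0.02 and 0.59, on both sides of 0, with a mean change of 0.06 (SE 0.21, adjusted p = 0.851). In MMTV-ras they were 0.68, 0.73, 0.66, 1.21 and 1.12, and the rise was 0.88 (SE 0.21, adjusted p = 0.00327). MMTV-myc had 0.59, 0.73, 0.31 and 1.20 (rise 0.71, SE 0.235, adjusted p = 0.0279), and without arrays 1, 2 or 4 the rise was 0.54 to 0.75 and no longer passed. Cct3 on the p53fp/fp;WAP-cre arrays was 2.46, 1.60, 1.82 and 1.24, and Cct7 was 0.58, 1.76, 1.19 and 1.04, a rise of 1.14 (SE 0.231, adjusted p = 0.000246). Cct6a there was 2.17, 1.29, 1.78 and 1.19, with a rise of 1.61 (SE 0.236, adjusted p = 2.83e-06), and Cct8 was 1.52, 1.21, 1.25 and 0.20, a rise of 1.04 (SE 0.268, adjusted p = 0.00308). Cct2 was 1.35, 0.60, 0.64 and 0.61, and its rise of 0.80 (SE 0.258, adjusted p = 0.0181) rested on array 1, without which it was 0.61 (adjusted p = 0.128). Cct4 stood at -0.44, -0.40, -0.16 and -0.17 on the same arrays and did not pass (-0.29, SE 0.253, adjusted p = 0.418). Only 1 of the 2 Cct4 features held direct values. In MMTV-ras Cct7 was 1.55, 1.29, 0.73, 1.69 and 1.56, a rise of 1.36 (SE 0.206, adjusted p = 1.11e-05), so this subunit stood above the others in that model.

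The Brca1 tumors fell into 2 runs of neighbouring array numbers, arrays 1 to 3 and arrays 4 and 5. Cct3 was 1.96, 1.56, 2.02, -0.43 and 0.25 on arrays 1 to 5 in order, Cct7 was 1.97, 1.83, 1.45, -0.06 and 0.26 and Cct6a was 1.80, 0.95, 2.18, 0.25 and 0.51. On arrays 1 to 3 these 3 subunits were far above 0, and on arrays 4 and 5 they were near it. Cct5 was 0.98, 1.14, 1.55, -0.01 and -0.24 and Cct4 was 1.86, 0.58, 0.34, -0.70 and -1.41. The first 3 arrays alone gave 5 of 6 tested higher (median 1.43), where 2569 of 5091 genes passed in either direction. The other 2 alone gave 0 higher and 2 lower (median -0.12), with Cct2 at -0.83 (adjusted p = 0.0374) and Cct4 at -1.05 (adjusted p = 0.000287). There 1444 of 5330 genes passed in either direction. Of 40 members with at least 2 values in each run, 18 (45%) had arrays 1 to 3 all above arrays 4 and 5, against 26.3% of 5255 genes, and 6 (15%) were all below, against 18.8%. The labels do not say what the run stands for, and its part in the Brca1 values was tested only by this split.

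**Figure D3:**
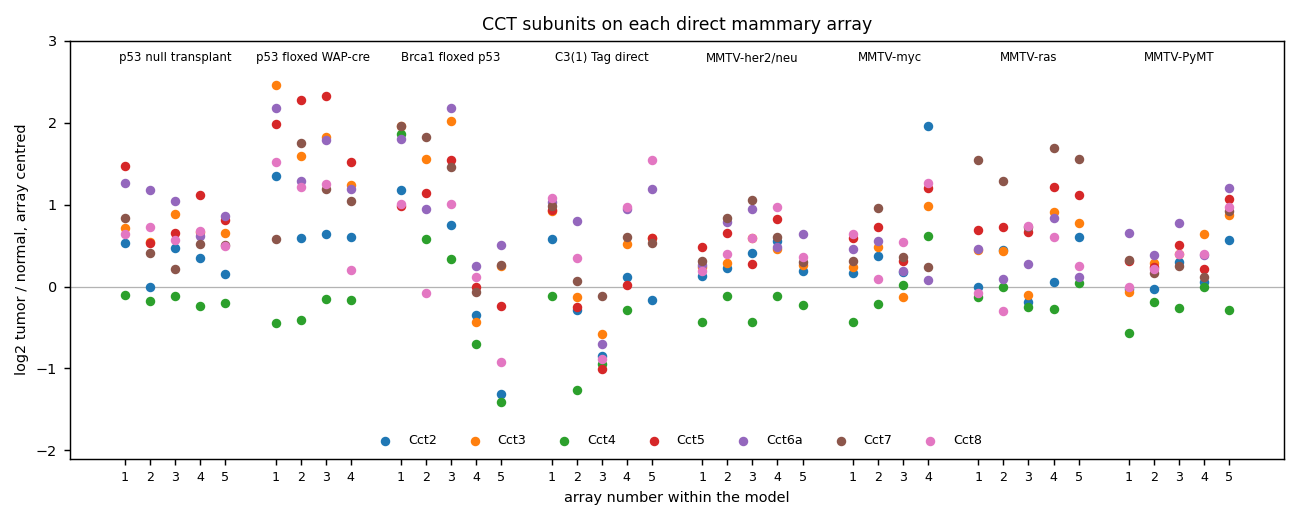
Log2 tumor over normal of 7 CCT subunits (colours) on each direct mammary array (horizontal axis, array number within the model), each array centred on its median. The p53 floxed WAP-cre arrays are high for 6 subunits, and the Brca1 arrays 1 to 3 lie above arrays 4 and 5 for most.

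The 3 mitochondrial chaperones fell in mammary tumors, and in lung tumors Hspa9 and Hspd1-ps3 rose while Hspe1 did not pass (0.20, SE 0.143, adjusted p = 0.276). The Hspd1-ps3 rise in lung was 0.46 (SE 0.132, adjusted p = 0.00625), and 0.35 (adjusted p = 0.114) within run 1. Hspa9 (mortalin), the mitochondrial Hsp70, had levels of -0.04, -0.12, -0.20 and -0.20 in normal mammary gland and -0.91, -1.02, -1.0 and -0.95 in mammary tumors, a change of -0.83 (SE 0.114, adjusted p = 5.52e-07). In lung the levels were -1.61, -1.87, -1.53 and -1.49 in normal tissue and -0.74, -0.90, -0.54 and -0.49 in tumors, a rise of 0.96 (SE 0.114, adjusted p = 5.12e-08). Neither pair of groups overlapped, and within run 1 the Hspa9 changes were -0.86 and 0.92. Seminal vesicle gave a rise of 0.34 (SE 0.104, adjusted p = 0.00821), which turned to -0.18 after quantile normalization (adjusted p = 0.285), and prostate gave -0.23 (SE 0.108, adjusted p = 0.0707), not past the test. The change differed among sites over a range of 1.79 (adjusted p = 2.97e-10).

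Hspe1 (Hsp10) and the feature named Hspd1-ps3 followed Hspa9 in the mammary gland. Hspd1-ps3 is annotated as a pseudogene copy of the Hsp60 gene, so the feature may also measure Hspd1 and its identity is uncertain. Its levels were -0.44, -0.63, -0.53 and -0.58 in normal mammary gland and -1.13, -1.71, -0.90 and -1.07 in tumors, a change of -0.66 (SE 0.132, adjusted p = 0.000148). Hspe1 levels were -0.63, -0.41, -0.38 and -0.51 and -1.09, -1.37, -1.19 and -1.18, a change of -0.72 (SE 0.143, adjusted p = 0.000129). Normal arrays were above the tumor arrays for both. In prostate Hspd1-ps3 rose by 0.99 (adjusted p = 3.02e-08) and Hspe1 by 0.37 (adjusted p = 0.0187). The Hspe1 rise in prostate lost its call after quantile normalization (0.24, adjusted p = 0.128) and with run as a factor (0.30, adjusted p = 0.142), and was 0.10 for the 1 tumor array in run 1. On the direct C3(1)/SV40 T/t-antigen arrays, the same transgene, Hspa9 was -0.90, -0.96, -1.80 and 0.60 on arrays 1, 2, 3 and 5, with a change of -0.76 (SE 0.259, adjusted p = 0.0182), Hspd1-ps3 changed by -0.56 (SE 0.214, adjusted p = 0.034) and Hspe1 by -0.46 (SE 0.175, adjusted p = 0.0336). Array 3 was the lowest for Hspa9, and without it the values were -0.42 (adjusted p = 0.233) for Hspa9, -0.21 (adjusted p = 0.425) for Hspd1-ps3 and -0.43 (adjusted p = 0.083) for Hspe1. With values as deposited none of the 3 passed in that model. In her2/neu Hspa9 fell by a log2 change of -0.96 (SE 0.231, adjusted p = 0.00252).

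A list of 6 other genes of mitochondrial folding and proteolysis had 1 higher in prostate and 1 higher in seminal vesicle. In mammary gland 1 was lower, and in lung 0 passed. Of all genes 61.4%, 43.5%, 36.7% and 36.5% passed at these sites in that order. The mammary gene was Phb (prohibitin, -0.48, adjusted p = 0.00139). In the direct models Clpx, the chaperone of the Clp protease, fell by a log2 change of -1.14 in the p53-/- transplants (adjusted p = 1.56e-05) and -1.17 in the Brca1 tumors (adjusted p = 3.05e-06). Clpx also fell in p53fp/fp;WAP-cre, her2/neu, ras and PyMT, by log2 changes of -0.71, -0.54, -0.66 and -0.51 (adjusted p = 0.00847, 0.0293, 0.0107 and 0.0352). Phb2 rose by 1.01 in the p53fp/fp;WAP-cre tumors (adjusted p = 0.00593). It also rose by 0.74 in Brca1, 0.84 in C3(1)/SV40 T/t-antigen, 0.86 in her2/neu, 0.90 in ras and 0.77 in PyMT.

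Hsp90aa1, the stress-inducible cytosolic Hsp90, had the largest change of any member. Its levels were -1.24, -1.70, -1.77 and -1.55 in normal prostate and 0.56, 1.02, 0.57, 0.92 and 1.81 in prostate tumors, a rise of 2.54 (SE 0.206, adjusted p = 2.23e-12), or 5.82-fold. In lung they were -0.71, -1.38, -0.46 and -0.55 and 0.05, 0.32, 0.72 and 0.54, a rise of 1.18 (SE 0.217, adjusted p = 5.31e-05). Both sites showed separate groups. Seminal vesicle normals stood at -1.34, -1.68, -1.75 and -1.54, and the tumors had a lowest value of -0.75, a median of -0.50 and a highest value of -0.33, a rise of 1.06 (SE 0.198, adjusted p = 7.45e-05). The mammary change was 0.30 (SE 0.217, adjusted p = 0.293) and did not pass. The prostate value was 3.38 for the 1 tumor array in run 1, and 2.44 with the muscle covariate. On the direct arrays changes ran from 0.22 in her2/neu to 0.73 in p53fp/fp;WAP-cre, where the arrays were 0.86, 0.87, 0.93 and 0.26. Only that model passed (adjusted p = 0.0155), and it no longer did without array 1, 2 or 3 (0.66 to 0.69) or with values as deposited (0.63, adjusted p = 0.0608).

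Hspa8 (Hsc70), the constitutive cytosolic Hsp70, rose at 3 sites and fell at the other. Prostate levels were -0.59, -1.08, -1.09 and -0.59 in normal tissue and -0.01, 0.41, 0.38, 0.08 and 0.64 in tumors, a rise of 1.13 (SE 0.159, adjusted p = 2.48e-07). Lung levels were -0.85, -1.29, -0.83 and -0.53 and -0.24, -0.06, 0.31 and 0.02, a rise of 0.88 (SE 0.168, adjusted p = 9.15e-05), and seminal vesicle rose by 0.95 (SE 0.153, adjusted p = 1.16e-05). In the mammary gland normal arrays were -0.27, 0.06, 0.13 and -0.22 and tumors -0.31, -0.84, -0.58 and -0.48, a change of -0.48 (SE 0.168, adjusted p = 0.0248). The mammary fall lost its call without normal array 2 or 3 or tumor array 2 (-0.38 to -0.43) and with run as a factor (-0.46, adjusted p = 0.0633). The p53fp/fp;WAP-cre arrays were 0.88, 0.81, 1.89 and 0.47, a rise of 1.01 (SE 0.289, adjusted p = 0.00749), which was 0.72 (adjusted p = 0.115) without array 3. No other model passed, and the 8 models did not pass the F test for Hspa8 (adjusted p = 0.0881).

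Among the Hsp110 nucleotide exchange factors, Hspa4 rose in lung by 0.57 (SE 0.13, adjusted p = 0.000716). On the p53fp/fp;WAP-cre arrays it was 1.06, 1.42, 1.37 and 0.86, a rise of 1.18 (SE 0.212, adjusted p = 5.51e-05), above all 5 C3(1)/SV40 T/t-antigen arrays at 0.11, -0.24, -0.84, -0.04 and -0.08. Its Brca1 rise of 0.45 was 0.08 (adjusted p = 0.725) without array 1. Hspa4l rose at 3 sites, by 0.52 in prostate, 0.57 in mammary gland and 0.48 in lung (adjusted p = 4.78e-05, 6.52e-05 and 0.00055), and on the direct C3(1)/SV40 T/t-antigen arrays by 0.58 (SE 0.153, adjusted p = 0.00299). With the muscle covariate the prostate value was 0.52 (adjusted p = 0.0584). Its 3 features differed in prostate, at -0.12, 0.76 and 0.92. Hsph1 fell in seminal vesicle by a change of -0.40 (SE 0.136, adjusted p = 0.0183), and its prostate change was 0.13 and not past the test. Hspa14, an Hsp70 that sits on ribosomes, rose at each site, by 0.91 in prostate, 0.72 in lung, 0.38 in mammary gland and 0.27 in seminal vesicle (adjusted p = 4.31e-09, 3.39e-06, 0.00633 and 0.0295). The seminal vesicle value was 0.06 (adjusted p = 0.716) after quantile normalization. Within run 1 the mammary value was 0.30 (adjusted p = 0.0597). In her2/neu Hspa14 fell instead (-0.46, SE 0.14, adjusted p = 0.0153).

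Hspa12a, a distant Hsp70 relative, fell at 3 sites, by -0.51 in seminal vesicle, -0.66 in mammary gland and -0.33 in lung as log2 changes (adjusted p = 6.86e-05, 5.7e-06 and 0.0116). The seminal vesicle value was -0.23 (adjusted p = 0.0777) after quantile normalization and -0.56 (adjusted p = 0.116) with run as a factor. Mammary levels were 0.64, 0.68, 0.65 and 0.37 in normal gland and -0.11, 0.18, -0.27 and -0.09 in tumors. On the Brca1 arrays it was -1.23, -1.60, -1.31, -0.54 and -0.55, a change of -1.04 (SE 0.149, adjusted p = 5.86e-07), and all 5 arrays were below 0, with arrays 4 and 5 alone at -0.54 (adjusted p = 0.0538). Hspa2, known for its role in sperm formation, rose by 0.40 (SE 0.143, adjusted p = 0.0255) in lung and by 0.41 and 0.51 in her2/neu and myc.

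The list of 11 other cytosolic co-chaperones and heat shock factors had 4 higher and 1 lower in prostate, 2 and 0 in seminal vesicle, 3 and 1 in mammary gland, and 4 and 1 in lung. These are 45.5%, 18.2%, 36.4% and 45.5% of the list, where 61.4%, 43.5%, 36.7% and 36.5% of all genes passed. Ptges3 (p23), which steadies Hsp90 on its client, rose at each site, by 1.05 in prostate, 0.76 in lung, 0.52 in seminal vesicle and 0.36 in mammary gland (adjusted p = 9.07e-10, 4.24e-06, 0.000247 and 0.0152). Bag3, a nucleotide exchange factor abundant in muscle, fell, with a change of -1.84 in prostate (SE 0.13, adjusted p = 2.07e-13) and -0.77 in lung (adjusted p = 6.05e-05). Fkbp4, an Hsp90-bound immunophilin, rose by 1.01 in lung. In 7 direct models it rose and was among the 3 list genes with the smallest p, from 0.75 in PyMT to 1.38 in ras. List genes may also pass in comparisons where they are not named here. Fkbp5, a related glucocorticoid-induced gene, rose by 0.71 in mammary tumors and by 0.67 to 0.91 in C3(1)/SV40 T/t-antigen, her2/neu, myc and ras.

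**Figure D4:**
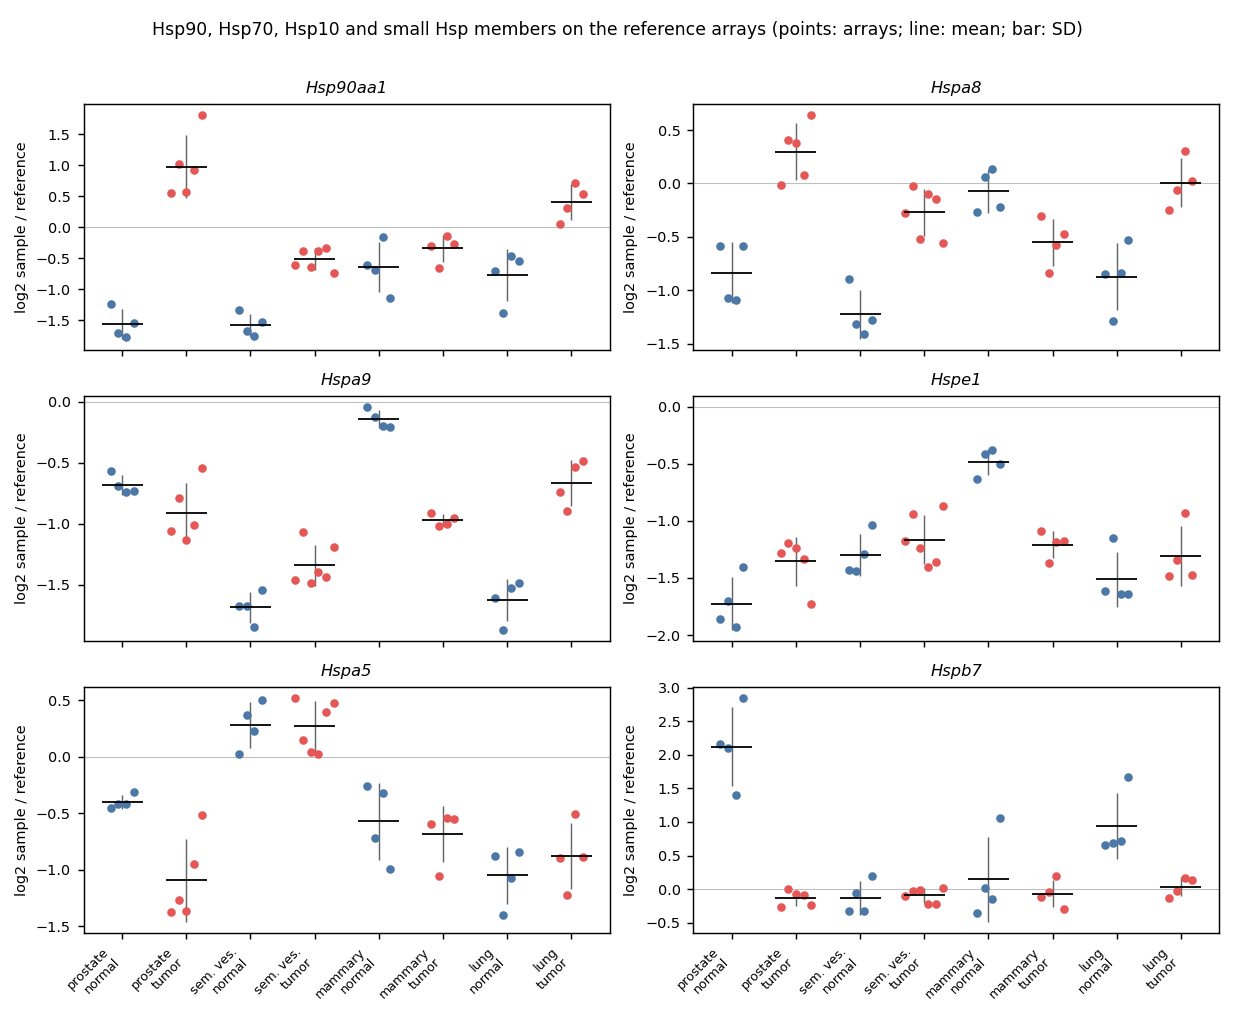
Log2 sample over reference (vertical axes) of Hsp90aa1, Hspa8, Hspa9, Hspe1, Hspa5 and Hspb7 in normal tissue (blue) and tumors (red) of 4 sites, with points for arrays, lines for means and bars for SD. Hsp90aa1 is higher in prostate, seminal vesicle and lung tumors, Hspa9 is lower in mammary and higher in lung tumors, and Hspb7 is high in normal prostate.

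The ER chaperone Hspa5, whose promoter above holds the ER stress response element, rose in 5 of 8 direct models and in 0 of 4 sites. Its values were 1.46, 1.76, 0.98 and 2.24 on the MMTV-myc arrays, a rise of 1.61 (SE 0.295, adjusted p = 0.000188), and 1.44, 1.47, 0.61, 1.79 and 1.45 in her2/neu, a rise of 1.35 (SE 0.264, adjusted p = 0.000259). PyMT arrays were 1.03, 0.66, 1.72, 0.89 and 1.89 (rise 1.24, SE 0.264, adjusted p = 0.000533) and ras arrays 0.55, 2.36, 0.18, 1.33 and 1.06 (rise 1.10, SE 0.264, adjusted p = 0.00341). All arrays of these 4 oncogene models were above 0. Without ras array 2 the ras rise was 0.78 (adjusted p = 0.0508). The p53fp/fp;WAP-cre arrays were 1.56, 1.31, 2.22 and 0.63, a rise of 1.43 (SE 0.295, adjusted p = 0.000319). In contrast, C3(1)/SV40 T/t-antigen arrays were 0.79, 0.17, -0.72, 0.44 and 0.55, with a change of 0.25 (SE 0.264, adjusted p = 0.472), and Brca1 arrays 0.43, 0.65, 0.90, -0.28 and -1.28, with 0.09 (SE 0.264, adjusted p = 0.816). Neither passed, and both had arrays on either side of 0. The p53-/- transplants, at 0.71, 0.96, 0.89, 0.69 and 0.11, did not pass (0.67, SE 0.264, adjusted p = 0.0656) but did after quantile normalization (0.83, adjusted p = 0.00747). With values as deposited the 5 rises still passed.

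The 8 models differed for Hspa5 over a range of 1.53 (F test, adjusted p = 0.00725). C3(1)/SV40 T/t-antigen minus the mean of her2/neu, ras and PyMT was -0.98 (SE 0.305, adjusted p = 0.0374). That difference lost its call without any 1 of 8 of the 20 arrays, with -0.69 (adjusted p = 0.106) as deposited. On the reference arrays Hspa5 was -0.26, -0.72, -0.32 and -0.99 in normal mammary gland and -0.60, -1.05, -0.54 and -0.55 in tumors of the C3(1)/SV40 T/t-antigen, a change of -0.11 (SE 0.179, adjusted p = 0.683). In prostate it went from -0.46, -0.41, -0.42 and -0.31 to -1.37, -1.27, -1.37, -0.95 and -0.52, a change of -0.69 (SE 0.17, adjusted p = 0.000719). Tumor array 5, the 1 prostate tumor in run 1 with 3 of the normals, was the highest tumor, and against the normals of that run it gave -0.09. With run as a factor the prostate change was -0.48 (adjusted p = 0.0947).

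Of the other ER members, Hsp90b1 (Grp94) rose by 0.62 (SE 0.174, adjusted p = 0.00454) in seminal vesicle and 0.46 (SE 0.181, adjusted p = 0.0265) in prostate. The prostate rise lost its call without normal array 4 or tumor array 4 or 5 (0.29 to 0.42), with quantile normalization and under the muscle covariate. After quantile normalization the seminal vesicle value was 0.47 (adjusted p = 0.0525). Pdia3 (ERp57) rose by 0.53 (SE 0.155, adjusted p = 0.00652) in seminal vesicle and fell by a log2 change of -0.59 (SE 0.161, adjusted p = 0.002) in prostate, where run as a factor gave -0.54 (adjusted p = 0.0537) and the 1 tumor array in run 1 gave -0.18. The seminal vesicle value with run as a factor was 0.88 (adjusted p = 0.15). Pdia4 (ERp72) fell by a log2 change of -0.66 (SE 0.106, adjusted p = 2.39e-06) in prostate and -0.29 (SE 0.102, adjusted p = 0.02) in seminal vesicle, the latter at -0.02 (adjusted p = 0.923) after quantile normalization. The prostate value was -0.47 (adjusted p = 0.0978) with the muscle covariate. On the C3(1)/SV40 T/t-antigen arrays Pdia4 fell by a log2 change of -0.46 (SE 0.139, adjusted p = 0.00799), and not with values as deposited (-0.13, adjusted p = 0.505). Dnajb9 (ERdj4), the J-domain partner of Hspa5 that the unfolded protein response induces, passed in other comparisons than Hspa5. Dnajb9 levels in lung were 1.36, 1.04, 1.49 and 1.27 in normal tissue and 0.23, 0.37, -0.24 and 0.05 in tumors, a change of -1.18 (SE 0.177, adjusted p = 2.62e-06), and it fell by a log2 change of -0.63 in prostate, -0.51 in seminal vesicle and -0.88 in the Brca1 tumors (adjusted p = 0.00163, 0.0107 and 3.66e-05). In the 4 oncogene models its changes lay between -0.03 and 0.11, none past the test. The prostate and seminal vesicle falls did not pass after quantile normalization (-0.38, adjusted p = 0.0538, and -0.34, adjusted p = 0.125), nor the prostate fall with the muscle covariate (-0.58, adjusted p = 0.216).

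The 17 other genes of ER folding and quality control (14 on the direct arrays) gave 2 higher and 7 lower in prostate, 1 and 6 in seminal vesicle, 0 and 3 in mammary gland, and 3 and 4 in lung. The shares passing were 52.9%, 41.2%, 17.6% and 41.2%, against 61.4%, 43.5%, 36.7% and 36.5% of all genes. On the direct arrays 7 rose and 0 fell in p53fp/fp;WAP-cre, 6 and 0 in both Brca1 and myc, 5 and 1 in both her2/neu and PyMT, 5 and 2 in ras, 1 and 0 in the p53-/- transplants, and 1 and 2 in C3(1)/SV40 T/t-antigen. Of the list 50% passed in p53fp/fp;WAP-cre and in ras (29.1% and 18.9% of all genes), 42.9% in Brca1, myc, her2/neu and PyMT (47.4%, 23.1%, 25.9% and 30.3% of all genes), 7.14% in p53-/- (20.8%) and 21.4% in C3(1)/SV40 T/t-antigen (41.8%). P4hb, the founding disulfide isomerase (Pdia1), rose by 2.42 (SE 0.33) in Brca1, 2.15 in PyMT, 1.79 in p53fp/fp;WAP-cre, 1.77 in her2/neu, 1.55 in myc and 1.38 in ras (adjusted p = 3e-07, 7.79e-06, 0.000348, 0.000158, 0.00283 and 0.00335). Herpud1, a degradation factor induced by ER stress, fell by a log2 change of -1.40 in prostate, -1.36 in mammary gland and -0.88 in lung, and rose by 1.13 in her2/neu and 1.10 in PyMT. Sec61b, a subunit of the ER entry channel, fell by a log2 change of -0.67 in seminal vesicle. It rose by 0.59 to 0.97 in the 6 models where it was among the 3 list genes with the smallest p. In the Brca1 tumors P4hb and Sec61b rose while Hspa5 did not pass. Hspa5 averaged 0.66 on Brca1 arrays 1 to 3 and -0.78 on arrays 4 and 5, and values by run are not given here for P4hb and Sec61b.

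Hspa1a, the classic heat-inducible Hsp70, shares nearly all its sequence with its neighbour Hspa1b, so its features may measure both. On the p53fp/fp;WAP-cre arrays it was 0.36, 1.46, 2.56 and 0.91, a rise of 1.32 (SE 0.265, adjusted p = 0.000229). In her2/neu it was 0.82, 0.83, 0.77, 0.85 and 0.86, a rise of 0.83 (SE 0.237, adjusted p = 0.0094), and in PyMT 0.61, 0.15, 0.92, 0.34 and 1.25, a rise of 0.65 (SE 0.237, adjusted p = 0.0347) that no longer passed without array 1, 3 or 5 (0.50 to 0.66) or as deposited. The 2 features differed, with 1.86 and 0.78 in p53fp/fp;WAP-cre, 1.29 and 0.36 in her2/neu and 1.23 and 0.07 in PyMT. In prostate Hspa1a fell by a log2 change of -0.52 (SE 0.172, adjusted p = 0.0092), from 0.60, 0.14, -0.01 and 0.46 to -0.38, -0.28, -0.27, -0.36 and 0.17, with 1 feature at -1.05 and the other at 0.00. Tumor array 5 was the highest tumor, and against the normals of its run it gave -0.07. The prostate value was -0.53 (adjusted p = 0.0565) with run as a factor and -0.60 (adjusted p = 0.211) with the muscle covariate. Dnajb1 (Hsp40), the usual inducible partner of Hspa1a, fell in prostate by a log2 change of -0.78 (SE 0.186, adjusted p = 0.000513) and rose in the Brca1 tumors by 0.33 (SE 0.111, adjusted p = 0.0136). The Brca1 arrays were 0.95, 0.47, 0.30, -0.14 and 0.09, with means of 0.57 on arrays 1 to 3 and -0.03 on arrays 4 and 5, so its higher values lay in the first run.

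Hspb7, a small heat shock protein of heart and skeletal muscle, was high in normal prostate. Its levels were 2.16, 2.10, 1.39 and 2.84 in normal prostate and -0.26, 0.00, -0.08, -0.08 and -0.24 in prostate tumors, a change of -2.25 (SE 0.225, adjusted p = 2.42e-10). The skeletal muscle markers above moved the same way, and with their mean as a covariate the change was -1.16 (adjusted p = 0.0265). In lung Hspb7 was 0.66, 0.69, 0.71 and 1.67 in normal tissue, array 4 the highest, and -0.13, -0.03, 0.17 and 0.14 in tumors, a change of -0.90 (SE 0.237, adjusted p = 0.00306), or -0.82 with the covariate. Hspb9 and Hspb11 also fell in lung (-0.36 and -0.42, adjusted p = 0.00194 and 7.99e-05), so 3 of 3 members with an Hspb symbol were lower there, where 20.4% of all genes were.

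The J-domain proteins split by member. In prostate 0 of 7 Dnajb genes rose and 6 fell (median -0.41), and of the 12 Dnajc genes 3 rose and 6 fell, where 29.2% of all genes rose and 32.2% fell. Over all 47 members the lower calls in prostate went from 19 to 8 with the muscle covariate and to 11 with run as a factor. Values in those fits are not given here for Dnajb1, Dnajc14, Dnajc19 and Dnajc24, so their prostate falls may not pass there. Dnaja1, the main cytosolic partner of Hspa8, rose in prostate from 0.44, 0.03, 0.05 and 0.11 to 1.40, 1.27, 1.35, 1.20 and 1.53, by 1.19 (SE 0.134, adjusted p = 3.36e-09). At the other sites its changes were 0.24, -0.23 and 0.03, none past the test. It fell in 4 direct models, most in Brca1, where the arrays were -0.22, -1.30, -1.05, -1.32 and -1.58 and the change -1.09 (SE 0.146, adjusted p = 2.17e-07). The falls in p53-/- (-0.43), her2/neu (-0.46) and ras (-0.47) did not pass with values as deposited. Dnaja4, abundant in muscle, moved the other way in prostate, from 1.68, 1.56, 1.26 and 1.43 to 0.01, 0.34, 0.29, 0.28 and 0.30, a change of -1.24 (SE 0.116, adjusted p = 6.1e-11). It was -1.20 for the 1 tumor array in run 1 and -1.24 (adjusted p = 0.000162) with the muscle covariate. Dnaja4 also fell in lung (-0.65, SE 0.123, adjusted p = 7.4e-05) and on the Brca1 arrays, at -1.86, -1.25, -0.50, -0.73 and -1.52, where the change was -1.17 (SE 0.143, adjusted p = 3.28e-08).

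Dnajb4, a heart and muscle J-domain protein with a heat shock pair next to its start, fell at 3 sites and in 7 of 8 models. Prostate levels were 0.60, 0.42, 0.33 and 0.48 in normal tissue and -0.11, -0.33, -0.53, -0.51 and -0.24 in tumors, a change of -0.80 (SE 0.093, adjusted p = 5.44e-09), with -0.51 under the muscle covariate. The lung change was -0.59 (SE 0.098, adjusted p = 1.26e-05) and the mammary change -0.29 (SE 0.098, adjusted p = 0.0172), the latter lost within run 1 (-0.22, adjusted p = 0.177). Brca1 arrays were -1.99, -2.08, -1.0, -0.72 and -0.88, a change of -1.33 (SE 0.145, adjusted p = 3.05e-09), and p53-/- arrays -0.83, -1.01, -0.56, -1.0 and -0.31, a change of -0.74 (SE 0.145, adjusted p = 0.000236). All 10 arrays were below 0. In the other models the changes ran from -0.48 to -0.39, the latter not past the test, and with values as deposited p53-/-, p53fp/fp;WAP-cre and Brca1 were the models that passed. The 2 features differed, with 1 at -1.49 in prostate, -1.20 in lung, -0.70 in mammary gland and -1.65 in Brca1, and the other at -0.12, 0.02, 0.11 and -0.34, of which the Brca1 value alone passed (adjusted p = 0.0123).

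Dnajc12, linked to the folding of aromatic amino acid hydroxylases, was lower in 8 of 8 models. Brca1 arrays were -1.43, -1.16, -0.80, -1.21 and -0.72, a change of -1.06 (SE 0.147, adjusted p = 4.65e-07), and ras arrays -0.96, -0.96, -0.50, -0.99 and -0.91, a change of -0.86 (SE 0.147, adjusted p = 7.96e-05). C3(1)/SV40 T/t-antigen arrays were -0.41, -1.26, -0.58, -0.51 and -0.55 (change -0.66, SE 0.147, adjusted p = 0.000567). The weakest change was -0.47 (SE 0.147, adjusted p = 0.0158) in PyMT. The reference arrays gave the same direction in the mammary gland, from 0.88, 0.89, 0.89 and 0.81 to -0.08, 0.10, -0.05 and -0.07, a change of -0.89 (SE 0.179, adjusted p = 0.000149), and -0.90 within run 1. With values as deposited 3 models passed, Brca1, her2/neu and ras, and the other 5 lay between -0.33 and -0.56. The models did not pass the F test for this gene (adjusted p = 0.131).

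Dnajc2 (Zuotin), the J-domain partner of Hspa14 on ribosomes, rose at 3 sites, by 0.62 in prostate, 0.51 in mammary gland and 0.79 in lung (adjusted p = 0.000307, 0.00649 and 7.78e-05). With the muscle covariate the prostate value was 0.51 (adjusted p = 0.188). Direct values split by model. C3(1)/SV40 T/t-antigen arrays were 0.88, 0.86, 0.46, 0.54 and 0.54, a rise of 0.66 (SE 0.145, adjusted p = 0.000499), p53fp/fp;WAP-cre arrays 1.28, 0.71, 0.98 and -0.08, a rise of 0.72 (SE 0.162, adjusted p = 0.000785), and Brca1 arrays 0.17, 1.12, 1.24, 0.41 and 0.19, a rise of 0.62 (SE 0.145, adjusted p = 0.000595) that was 0.30 (adjusted p = 0.27) on arrays 4 and 5 alone. In her2/neu, myc, ras and PyMT the changes were -0.13, -0.04, -0.10 and 0.10, none past the test. The p53-/- rise of 0.40 passed (adjusted p = 0.0466) but not without any 1 of its 5 arrays. The 8 models differed (adjusted p = 0.0014), and C3(1)/SV40 T/t-antigen minus the mean of her2/neu, ras and PyMT was 0.70 (SE 0.167, adjusted p = 0.00675), which passed without each of the 20 arrays. Of its 2 features 1 gave 0.87 to 1.20 in the 4 models that rose, and the other 0.02 to 0.37. In PyMT the first of these features also rose, by 0.52 (adjusted p = 0.0322), and the other was at -0.32 (adjusted p = 0.162). Cell division markers (10 genes) averaged 1.29, 0.94, 1.26 and 0.64 in C3(1)/SV40 T/t-antigen, p53fp/fp;WAP-cre, Brca1 and p53-/- tumors and 0.25 to 0.54 in the others, and their part was not tested.

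Dnajc21, a ribosome assembly factor, differed among models over a range of 1.54 (F test, adjusted p = 0.00448). Brca1 arrays were -0.81, -1.24, -0.89, -0.70 and -1.95, a change of -1.12 (SE 0.18, adjusted p = 7.4e-06), and p53-/- arrays -1.02, -0.82 and -0.64, a change of -0.83 (SE 0.233, adjusted p = 0.0098), while C3(1)/SV40 T/t-antigen arrays were 0.10, 0.31, 0.82 and 0.45 (0.42, SE 0.202, adjusted p = 0.0927), where arrays without a value were left out. On the reference arrays it rose in mammary tumors by 0.62 (SE 0.138, adjusted p = 0.000506) and lung tumors by 0.49 (SE 0.138, adjusted p = 0.00509). Its prostate fall of -0.32 turned to 0.17 (adjusted p = 0.655) with the muscle covariate. Dnajc5 (cysteine string protein), which guards vesicle release, rose in PyMT, where the arrays were 0.90, 1.99, 1.42, 1.25 and 1.79 and the rise 1.47 (SE 0.178, adjusted p = 2.9e-07). Only 1 of the 2 Dnajc5 features held direct values. No other model reached 2-fold, though C3(1)/SV40 T/t-antigen rose by 0.82 (SE 0.23, adjusted p = 0.00481) and Brca1 by 0.73 (SE 0.178, adjusted p = 0.00107). The p53fp/fp;WAP-cre arrays were 0.20, 0.26, 1.01 and 0.24, array 3 the highest, and the change of 0.43 (SE 0.199, adjusted p = 0.105) did not pass.

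Other Dnajc members fell in prostate. Dnajc25 went from 0.80, 0.98, 0.47 and 0.50 to -0.26, -0.37, -0.41, -0.36 and -0.19, a change of -1.01 (SE 0.092, adjusted p = 3.21e-11) that was seen in both features (-0.96 and -1.05) and was -1.17 with the muscle covariate. Dnajc24, which takes part in diphthamide synthesis, fell by a log2 change of -0.73 (SE 0.161, adjusted p = 0.000205) in prostate and -0.74 (SE 0.155, adjusted p = 0.00028) in seminal vesicle. Dnajc14 fell in prostate (-0.62, SE 0.124, adjusted p = 6.49e-05) and rose in lung (0.60, SE 0.131, adjusted p = 0.000422). Dnajc19, of the mitochondrial import motor, fell in prostate (-0.45, SE 0.086, adjusted p = 3.07e-05), rose in lung (0.41, SE 0.091, adjusted p = 0.000506) and fell in 5 of 8 models, most in PyMT (-0.73, SE 0.177, adjusted p = 0.00208). Dnajb14 passed at no site and in no model, with changes between -0.27 and 0.37.

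**Figure D5:**
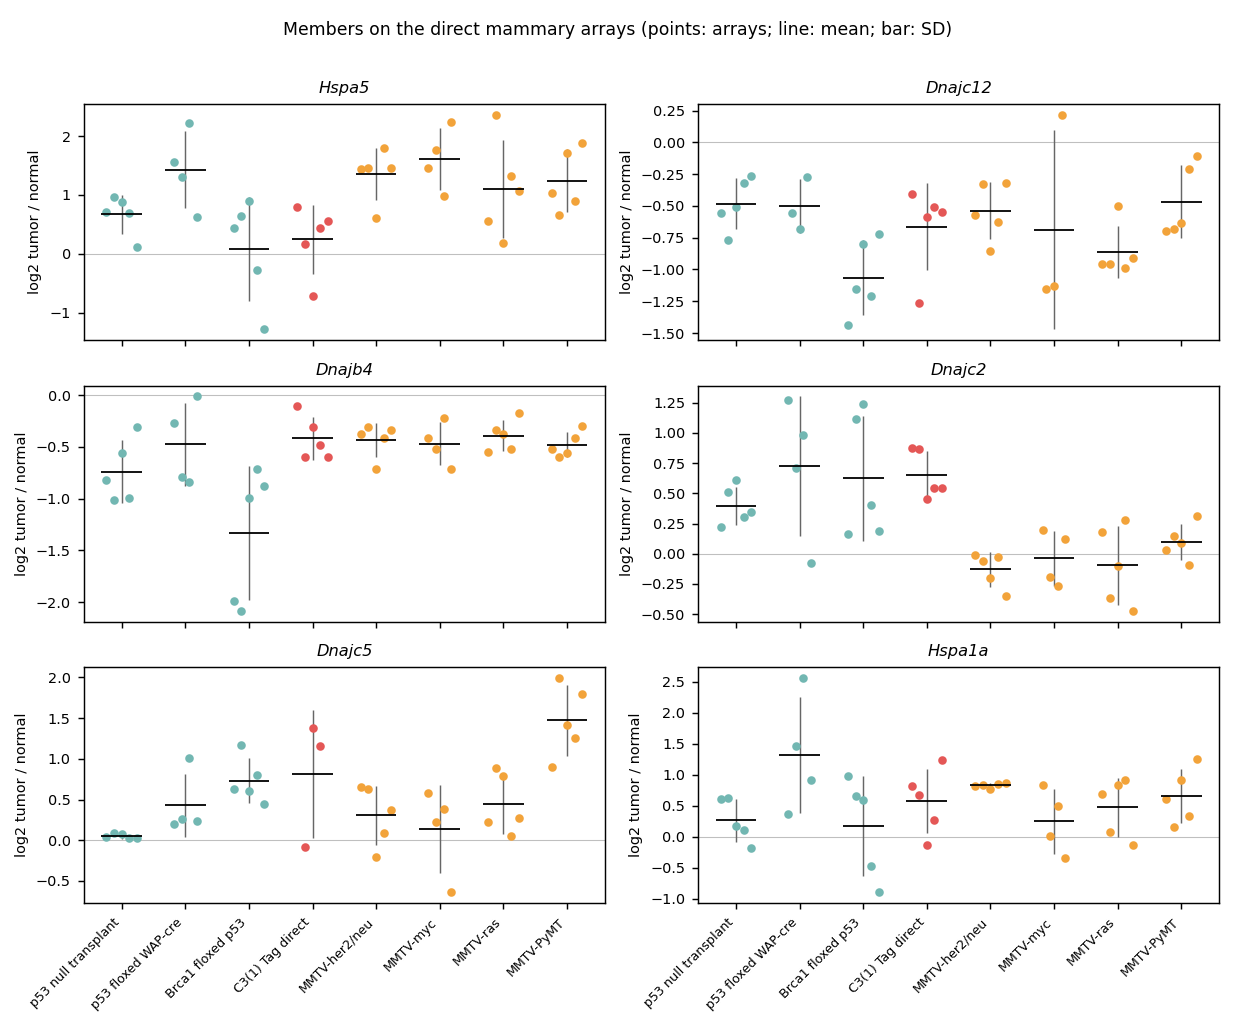
Log2 tumor over normal (vertical axes) of Hspa5, Dnajc12, Dnajb4, Dnajc2, Dnajc5 and Hspa1a on the direct mammary arrays of 8 models, each array centred on its median, with points for arrays, lines for means and bars for SD. Teal marks the p53 and Brca1 models, red C3(1)/SV40 T/t-antigen and orange the 4 oncogene transgenes. Hspa5 is highest in p53 floxed WAP-cre and the orange models, Dnajc2 is higher in teal and red, and Dnajc5 is highest in PyMT.

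C3(1)/SV40 T/t-antigen was compared with the mean of her2/neu, ras and PyMT, models of the same strain whose arrays partly shared runs. The comparison called 4 of 43 members, 3 higher and 1 lower, against 9% of all genes (5.46% higher and 3.54% lower). The split was 3 and 3 after quantile normalization and 5 and 0 with values as deposited, which moved the median of all genes to 0.30. Higher were Dnajc21 (0.71, SE 0.227, adjusted p = 0.0461), Dnajc2 (0.70, SE 0.167, adjusted p = 0.00675) and Hspa4l (0.59, SE 0.177, adjusted p = 0.0326), and lower was Hspa5. Dnajc21 lost its call without any 1 of 14 arrays, and Hspa4l without C3(1)/SV40 T/t-antigen array 2, 3 or 5. With run as a factor the Dnajc21 value was 1.49 (adjusted p = 0.00863) and the Hspa4l value 0.70 (adjusted p = 0.106), the latter no longer past the test, while Dnajc2 (0.79) and Hspa5 (-0.98) still passed.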

How the data were processed

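The authors deposited 1 log2 ratio for each feature of an array. Base and direction are not in the labels. Read as log2, the interaction rule of the series text gave 2633 of 9532 features, where that text states 2638 (natural log 3764, base 10 4168). On the reference arrays the sample was taken as the numerator, since 8 of 8 airway markers were higher in normal lung and 10 of 10 adipocyte markers in normal mammary gland. On the direct arrays the tumor was, from a correlation across 5752 genes with the mammary reference change (r = 0.499, rho = 0.38, genes not independent). Image analysis, background correction and filters are not given in the sources used here.

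Features with 1 symbol (7486, against 483 with several and 1627 with none) were averaged per gene, and 9 members have several features. Reference medians lay between -0.05 and 0.01 and were kept. Direct medians lay between -0.42 and 0.66, and each direct array was centred on its median. Tests used limma 3.58.1 in R 4.3.3 (tables by version 1.17.8 of data.table), with 8 group means on 35 arrays and 8 model means against 0 on 38 arrays, at least 3 values a group, and Benjamini-Hochberg adjustment over all genes (threshold 0.05). The F tests used 3 contrasts of sites or normal tissues and 7 of models. Simulated data were used to test the fits. Runs are stretches of array database numbers with gaps of at most 20. Same-numbered replicates correlated at -0.24 to 0.22 on reference and -0.44 to 0.14 on direct arrays, so numbers were not taken as pairs. The number of arrays limits the precision, and intensities were not used here.

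Members and lists were chosen with earlier results of these data known. Named members passed at 2-fold or more in at least 1 site or model, and list genes named are the 3 smallest p per comparison among passing genes. Alternatives were quantile scaling, other centring, complete features, features in place of gene means, updated symbols, left-out arrays, run, replicate block, muscle covariate and the F rule of the series text. The split of 2 direct models by run was added after seeing the data.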

Additional observations from a re-analysis of the deposited data

Results flagged for a closer look

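In 338 groups of 4 to 6 arrays tested, 25 held 1 array that stood apart from the rest by Dixon's criterion. Chance gives about 1 in 20 such groups. Values are log2 ratios, with the range of the other arrays of the group behind each.

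On the reference arrays the prostate held 6 of these. Tumor array 5, the 1 prostate tumor in run 1 with 3 of the normals, stood apart for Hspa1a (0.17, others -0.38 to -0.27) and Cct8 (0.15, others -0.64 to -0.43). Normal array 4, from another run than the other 3 normals, stood apart for Cct2 (-1.39, others -1.67 to -1.64) and Cct4 (-0.38, others -0.75 to -0.69). Dnaja4 was 0.01 on tumor array 1 (others 0.28 to 0.34), and Hspa12a was 0.29 on tumor array 3 (others 0.45 to 0.50). In seminal vesicle normals Cct6a was -1.49 on array 4 (others -1.79 to -1.74) and Dnajc5 was -0.49 on array 1 (others -0.33 to -0.30).

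In normal mammary gland array 4 stood apart for Dnajc12 (0.81, others 0.88 to 0.89) and Hspa12a (0.37, others 0.64 to 0.68). Mammary tumor array 2 stood apart for Hspa5 (-1.05, others -0.60 to -0.54) and Dnajc5 (0.14, others -0.25 to -0.22). In lung Hspb7 was 1.67 on normal array 4 (others 0.66 to 0.71), Cct4 was -0.26 on normal array 3 (others -0.61 to -0.58) and Dnajb4 was -0.24 on tumor array 4 (others -0.40 to -0.38).

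On the direct arrays 3 genes stood apart in p53fp/fp;WAP-cre. Hsp90aa1 was 0.26 on array 4 (others 0.86 to 0.93), Dnajc5 was 1.01 on array 3 (others 0.20 to 0.26) and Cct2 was 1.35 on array 1 (others 0.60 to 0.64). In C3(1)/SV40 T/t-antigen, Cct6a was -0.71 on array 3 (others 0.80 to 1.19) and Dnajc12 was -1.26 on array 2 (others -0.58 to -0.41). MMTV-myc array 4 held Cct2 at 1.96 (others 0.16 to 0.38) and Dnajc25 at -0.19 (others 0.07 to 0.12). Cct7 was 0.92 on PyMT array 5 (others 0.11 to 0.32), Dnajb4 was -0.71 on her2/neu array 3 (others -0.42 to -0.31), and Dnajc12 was -0.50 on ras array 3 (others -0.99 to -0.91).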

How the results depend on the processing

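Over 376 results for single genes and 5077 settings, 4705 kept direction and side of the threshold, 276 lost the call, 86 gained it and 10 reversed. Reversed values were Dnajc21 in prostate with the muscle covariate (0.17), Dnaja4 in seminal vesicle with run as a factor (0.10), Hspa9 and Hspd1-ps3 in seminal vesicle after quantile normalization (-0.18 and -0.02), and Hspa4l in MMTV-myc by features (0.46). With only Brca1 arrays 4 and 5, Cct2 (-0.83), Cct3 (-0.09), Cct4 (-1.05), Cct5 (-0.12) and Hspa4 (-0.29) reversed, and 12 members passed. Counts of members passing that moved by over 1.5 times were 20 in prostate with the muscle covariate, 7 in seminal vesicle after quantile normalization and 8 with run as a factor, and 17 for the site difference under the unmoderated F rule. The p53-/- transplants gave 20 after quantile normalization, and 2 and 1 within runs 16 and 17. MMTV-ras gave 16 after quantile normalization. With values as deposited counts were 6 in her2/neu, 11 in ras and 5 in PyMT. Features with a value on every array left 23 members on the direct arrays, of which 3 passed in p53-/-, 10 in Brca1, 11 in C3(1)/SV40 T/t-antigen, 7 in her2/neu, 7 in myc, 3 in ras and 6 in PyMT, 13 differed among models, and 1 in C3(1)/SV40 T/t-antigen against 3 models. Leaving out 1 array gave 33 to 37 in prostate, 21 to 24 in seminal vesicle, 12 to 14 in mammary gland, 24 to 28 in lung, 38 to 42 for the site difference and 38 to 41 for the normal tissues. It gave 18 to 22 in Brca1 and 14 to 22 for the models. It moved the count by over 1.5 times in p53-/- (4 to 8; without array 1, 2 or 4), p53fp/fp;WAP-cre (10 to 16; array 3), C3(1)/SV40 T/t-antigen (8 to 15; array 1, 2 or 5), her2/neu (7 to 9; array 1 or 3), myc (2 to 8; array 1, 2 or 3), ras (3 to 5; array 2) and PyMT (5 to 9; array 1 or 5). For C3(1)/SV40 T/t-antigen against 3 models it gave 1 to 5 (C3(1) array 2, 4 or 5, ras array 2, PyMT array 3). With the replicate number as a block, members passing were 33 in prostate, 23 in seminal vesicle, 14 in mammary gland, 26 in lung and 4 in C3(1)/SV40 T/t-antigen against 3 models, where the numbers do not pair the samples. Apart from splits by run and centring as named, the cause of these moves was not tested. Seminal vesicle normal and tumor arrays shared no run, so run and group cannot be told apart there within the site. Weak signals could not be assessed without intensities.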
